A study of Arabidopsis thaliana with 16 samples.

Results

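The proteasome genes of Arabidopsis rosette leaves were examined as 25 of the 22810 probe sets of the ATH1 array. They were chosen because the word proteasome stands in the gene title of the deposited annotation, and no measured value entered the choice. Of these, 8 probe sets measure subunits of the 20S core particle and 10 measure subunits of the 19S regulatory particle. Another 5 measure an assembly, activator or inhibitor protein, and 2 measure PCI-domain proteins whose annotation also places them in the translation initiation factor eIF3. All 25 passed the filter on low signals, as did 14286 probe sets in all. The title does not name every subunit, so 31 further 20S and 19S probe sets from a list of known subunits were set beside them.

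Leaf RNA came from plants flown on the SJ-10 satellite (sp, space) and from plants in a matching unit on the ground (gr), with 2 arrays in each of 8 groups and 16 arrays in all. FG plants carry pHSP::FT and pHSP::GFP, 2 transgenes combined by crossing that put the florigen gene FT and GFP under the heat-inducible HSP17.4 promoter. WT is the Columbia (Col-0) ecotype. In SD the plants had 8 h of light and 16 h of dark, and in LD they had 16 h of light and 8 h of dark. SD plants of both genotypes, in space and on the ground, received heat pulses early in the experiment and LD plants did not, so daylength and heating cannot be told apart. A single unit flew and 1 stayed on the ground, and flown leaves were fixed at the landing site after return, so spaceflight cannot be told apart from the unit or the handling at harvest. Each treatment used leaves of 2 plants, and p-values measure only the spread between such arrays.

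The 26S proteasome degrades proteins that carry ubiquitin chains. Its 20S core is a barrel of alpha rings, which form the gate, and beta rings, whose PBA, PBB and PBE subunits cut peptide bonds. The 19S particle caps the barrel: the RPT ATPases and the RPN1 and RPN2 scaffolds of its base bind, unfold and feed in substrates, and its lid removes ubiquitin through RPN11. In Arabidopsis most subunits are encoded by paralogue pairs, and the transcription factors NAC53 and NAC78 are known to raise subunit transcripts when proteasome activity is short.

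All 5 leaf markers were called present on all 16 arrays. Of the 4 root markers none was present on all arrays, and the summed root signal lay between 46.8 and 340.4. Of the 4 flower organ markers 2 were present on no array, but PI was present on 15 of 16 and reached 654, and the 4 summed to 70.4 to 710.5. The summed leaf marker signal was 53480 to 73048 in space and 11162 to 75688 on the ground in SD, and 87453 to 98104 in space and 23566 to 62204 on the ground in LD. FT was called present on 6 of 8 FG arrays and on 0 of 8 WT arrays. Probe sets called present made up 55.2% to 58.5% in space and 52.0% to 54.7% on the ground in SD, and 58.0% to 60.3% in space and 51.7% to 57.3% on the ground in LD. The 3′ minus 5′ log2 difference of the GAPDH control probe sets, a sign of RNA integrity, was 0.117 to 1.14 on the 8 space arrays and 1.12 to 1.75 on the 8 ground arrays. Spike-in controls averaged 11.1 to 11.2 (log2) on space arrays and 11.5 to 11.9 on ground arrays. The median log2 fold change of the 5 leaf markers, space over ground with genotypes pooled, was 1.16 in SD and 1.13 in LD. In either daylength 0 of the 5 lay below 0, though their summed signal overlapped between space and ground in SD. The 3′ difference, the spike-in level, the present calls and the leaf markers thus moved with the environment, and their part in the results below was not tested.

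**Figure D1:**
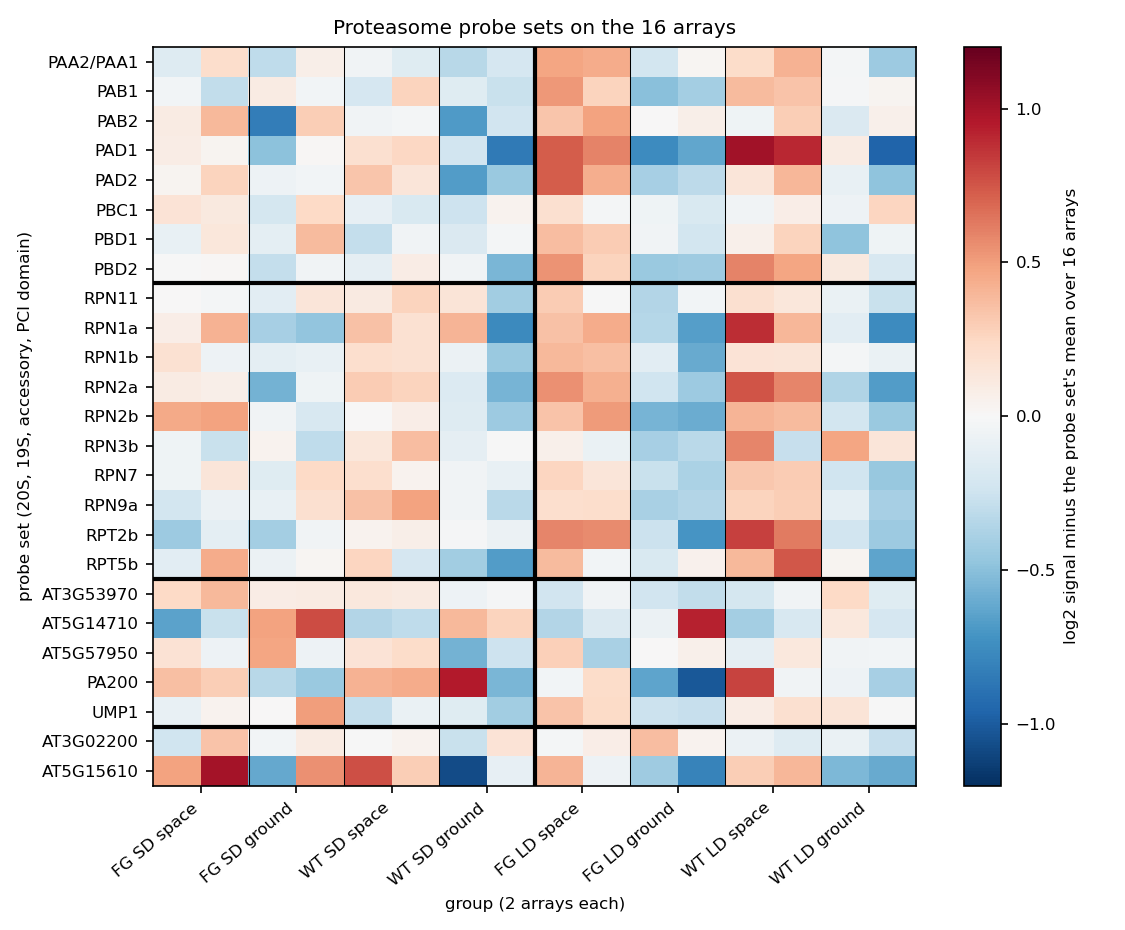
Log2 signal of each of the 25 proteasome probe sets (rows, grouped as 20S, 19S, accessory and PCI domain) on each of the 16 arrays (columns, 2 per group), after subtracting the probe set's mean over all arrays. In LD most 20S and 19S rows are red on the 4 space arrays and blue on the 4 ground arrays, while in SD the contrast is faint.

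Between space and ground, with both genotypes pooled, the median log2 fold change of the 25 probe sets was 0.20 in SD and 0.55 in LD, against 0.08 in either daylength for all 14286 tested. The level of such changes depended on the scaling of the arrays. Relative to the median of all tested, the members' median lay between 0.08 and 0.18 in SD and between 0.42 and 0.60 in LD under the deposited and 3 other scalings.

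In LD, 21 of the 25 were above 0 as deposited, and 17 after median centring. Of the 25, 13 rose at an adjusted p under 0.05 (limma with Benjamini-Hochberg adjustment over all tested probe sets), where 21.6% of all tested probe sets rose. None fell, against 13.1% of all tested, though AT5G14710 fell after quantile normalization or median centring. A probe set was called when it also changed at least 2-fold. Called higher were 3 of the 25, PAD1, RPT2b and RPN2a, beside 13.5% of all tested, so by the 2-fold rule the share of members was no higher than the background as deposited. On 16 of the 25 probe sets the 4 LD space arrays all lay above the 4 LD ground arrays, which held for 21.4% of all tested. With median centring 4 members rose, beside 13.1% of all tested, and 1, PAD1, was called. With spike-in scaling 23 rose, beside 44.4% of all tested, 16 were called higher, beside 28.3%, and the members' median was 1.11. RPN2a lost its call on leaving out any of 4 single arrays and RPT2b on leaving out FG-LD-gr replicate 2, while PAD1 kept its call throughout.

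The alpha ring held the largest change of any member. PAD1, an alpha-ring subunit, had signals of 2403 and 2192 in FG and 2920 and 2711 in WT under LD in space, against 862 and 940 in FG and 1555 and 746 in WT under LD on the ground. All 4 space arrays were above all 4 ground arrays, and the 2 WT ground arrays lay far apart. The log2 fold change was 1.37 ± 0.24 (SE), with an adjusted p of 0.00166 (limma). Its paralogue PAD2 rose by 0.75 ± 0.15 (adjusted p 0.00435, limma). PAB1 rose by 0.60, and the probe set shared by PAA2 and PAA1, which cannot separate those genes, rose by 0.55. PAB2 had a log2 fold change of 0.28 and did not pass (adjusted p 0.387, limma). With median centring 3 of the 11 alpha-ring probe sets, members and others, rose in LD, beside 13.1% of all tested.

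The beta-ring members moved unevenly. PBD2 rose, with a log2 fold change of 0.70 ± 0.16 (adjusted p 0.00694, limma). Its signals were 1580 and 1315 in FG and 1645 and 1516 in WT in space, against 803 and 812 in FG and 1183 and 954 in WT on the ground. For PBD1 the log2 value was 0.45 (adjusted p 0.0594) and for PBC1 it was 0.06 (adjusted p 0.787, both limma). PBC1 thus stayed near the median of all tested probe sets. With median centring no beta-ring probe set rose in LD.

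In the 19S base, 1 of 2 ATPase members and all 4 scaffold members rose in LD as deposited. With median centring 2 of the 6 base non-ATPase probe sets (the 4 scaffolds, RPN10 and RPN13) rose and 0 fell. Of the 9 base ATPase probe sets, members and others, 1 then rose and 2 fell. Over all tested 13.1% rose and 21.6% fell with that scaling. RPT2b, an ATPase of the base ring, had signals of 513 and 507 in FG and 603 and 526 in WT in space, against 286 and 209 in FG and 292 and 253 in WT on the ground. The lowest space array was well above the highest ground array. Its log2 fold change was 1.06 ± 0.16 (adjusted p 0.000822, limma). RPT5b, the other ATPase, had a log2 fold change of 0.55 and did not pass (adjusted p 0.0679, limma).

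RPN2a, 1 of the paired scaffolds of the base, had signals of 747 and 684 in FG and 859 and 763 in WT in space, against 433 and 378 in FG and 397 and 321 in WT on the ground. It changed by 1.00 ± 0.17 on the log2 scale (adjusted p 0.00127, limma), at the very edge of the 2-fold rule. RPN2b rose by 0.87 ± 0.13 (adjusted p 0.000887, limma), with signals of 648 and 727 in FG and 678 and 665 in WT in space, against 346 and 338 in FG and 439 and 375 in WT on the ground. RPN1a, a scaffold that docks ubiquitin receptors, rose by 0.99 ± 0.26 (adjusted p 0.0131, limma), with signals of 821 and 876 in FG and 1185 and 846 in WT in space, against 506 and 406 in FG and 589 and 380 in WT on the ground. RPN1b rose by less, 0.48 ± 0.15 (adjusted p 0.0336, limma). For every one of these scaffolds, RPN1b included, all LD space arrays lay above all LD ground arrays, which held for 21.4% of all tested.

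Of the 4 lid members 2 rose in LD, RPN7 by 0.59 and RPN9a by 0.56 on the log2 scale, with adjusted p of 0.00852 and 0.0115 (limma). RPN11, the lid's deubiquitinase, did not pass. Its signals were 2626, 2116, 2425 and 2333 on the LD space arrays and 1660, 2076, 2010 and 1767 on the LD ground arrays, a log2 fold change of 0.34 ± 0.17 (adjusted p 0.145, limma). RPN3b stood at 0.10 on the log2 scale (adjusted p 0.740). With median centring 2 of the 13 lid probe sets, members and others, rose in LD, beside 13.1% of all tested.

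**Figure D2:**
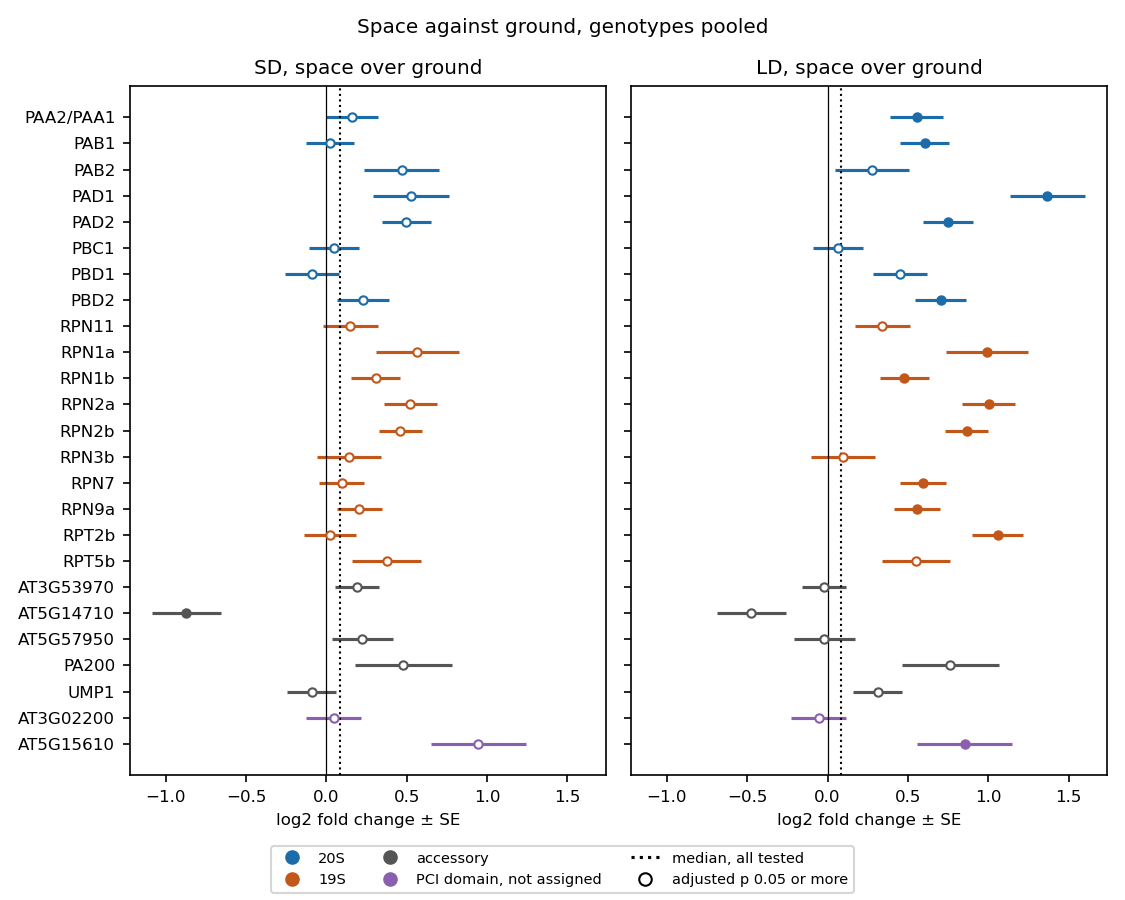
Log2 fold change of space over ground (x axis, ± SE, 4 against 4 arrays with genotypes pooled) for each of the 25 probe sets, SD on the left and LD on the right. Filled points have an adjusted p under 0.05, and the dotted line marks the median of all 14286 tested probe sets. In LD all 18 subunits lie right of 0 (PAB2, PBC1 and RPN3b lie left of it after median centring), and in SD the only filled point is AT5G14710, which lies left of 0.

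In SD the same comparison gave smaller values. Of the 25 probe sets 22 were above 0 as deposited, and 14 after median centring. No member rose at an adjusted p under 0.05 (limma), beside 6.21% of all tested, and 5 had an unadjusted p under 0.05 in that direction. Such unadjusted counts, here and below, have no share of all tested beside them and are not read as a result about the members. None was called higher, beside 3.43% of all tested. With spike-in scaling 21 members rose in SD, where 5787 of 14459 tested probe sets rose, and 8 were called higher, beside 21.2%. The median of all tested was then 0.58 and that of the members 0.76. The 4 SD space arrays lay above the 4 SD ground arrays for 6 members, beside 10.3% of all tested. Those 6 were PAD1, PAD2, RPN1b, RPN2a, RPN2b and AT3G53970.

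In SD 1 member fell, where 3.03% of all tested fell at that adjusted p. AT5G14710, titled an assembly chaperone 3-domain protein, had signals of 309 and 403 in FG and 379 and 392 in WT in space, against 678 and 832 in FG and 632 and 583 in WT on the ground. All 4 space arrays were below all 4 ground arrays, which held for 5.17% of all tested. Its log2 fold change was -0.87 ± 0.22 (adjusted p 0.0316, limma), short of 2-fold. Scaled to the spike-ins, the fold change shrank to -0.32 without passing (adjusted p 0.287). In LD its log2 fold change was -0.47 without passing (adjusted p 0.111) and turned to 0.08 with spike-in scaling, and 1 FG ground array at 918 stood apart from the other ground arrays at 420 to 528.

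The difference between daylengths was tested as the SD response to space minus the LD response. With genotypes pooled, 1 member was called, RPT2b, beside 4.36% of all tested. RPT2b changed by 0.02 in SD and by 1.06 in LD, a difference of -1.04 on the log2 scale (adjusted p 0.0290, limma). In SD its signals were 252 and 315 in FG and 351 and 359 in WT in space, against 258 and 332 in FG and 338 and 325 in WT on the ground, so the groups overlapped. Leaving out single arrays ended this call in 10 of 16 cases, with differences of -1.15 to -0.92. For 19 of the 25 members the SD response was the smaller in value, and the median difference was -0.35, against -0.02 over all tested. Apart from RPT2b, none of these differences passed at an adjusted p under 0.05, and 5, RPT2b among them, had an unadjusted p under 0.05. Within genotypes limma called no member, beside 0.840% of all tested in FG and 0.672% in WT, with 6 and 1 unadjusted p-values under 0.05.

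**Figure D3:**
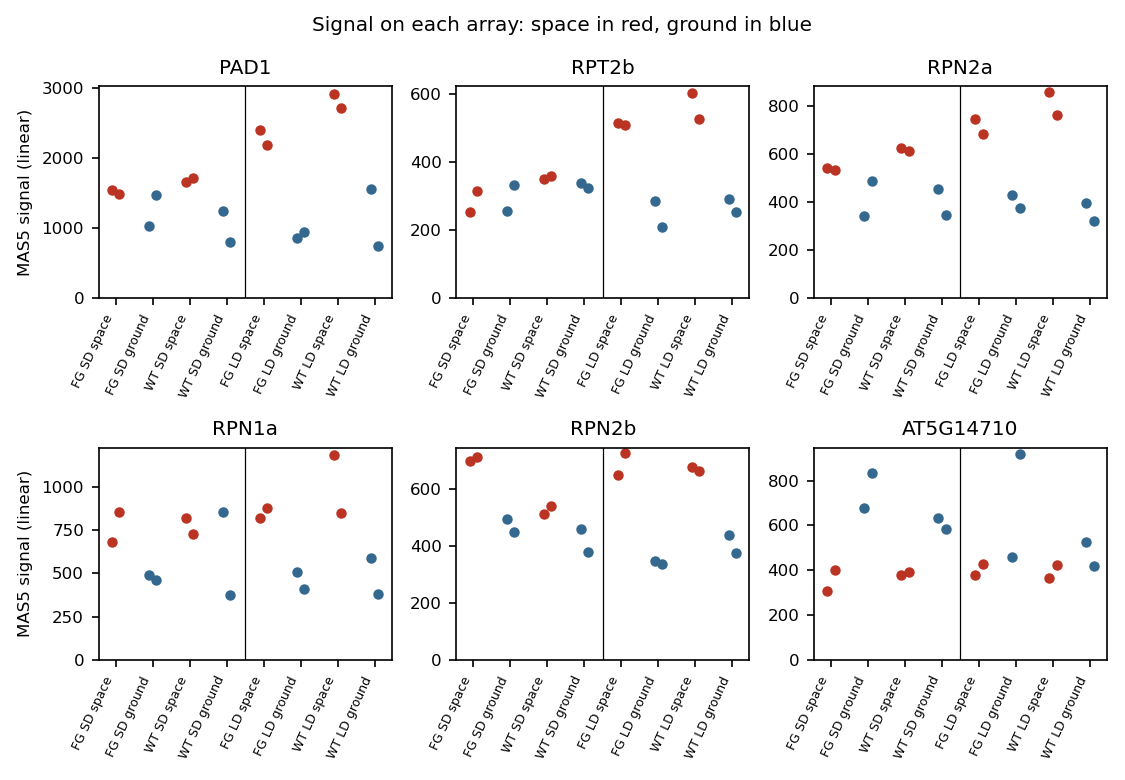
Linear MAS5 signal (y axis, from 0) of 6 proteasome probe sets on each array, by group on the x axis, with 2 points per group, space in red and ground in blue. For PAD1, RPT2b, RPN2a, RPN1a and RPN2b every LD space point lies above every LD ground point, and for AT5G14710 every SD space point lies below every SD ground point.

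Compared directly under the same environment, SD and LD gave no called member. The SD over LD contrasts called 4.15% of all tested in FG in space, 0% in FG on the ground, 2.78% in WT in space and 0.0210% in WT on the ground. The median member change of SD over LD was -0.16 in FG in space, 0.26 in FG on the ground, -0.16 in WT in space and -0.04 in WT on the ground. Unadjusted p-values under 0.05 numbered 3, 3, 2 and 0 in these contrasts, again without a share of all tested. In space 18 members in FG and 16 in WT had the SD value below the LD value, and on the ground 3 in FG and 14 in WT did. These member values are not taken relative to all tested probe sets, whose median log2 signal also differed between arrays. In space it was 8.57 and 8.67 (SD) and 8.68 and 8.71 (LD) in FG. In WT in space it was 8.68 and 8.65 (SD) and 8.72 and 8.74 (LD). On the ground it was 8.51 and 8.47 (SD) and 8.54 and 8.50 (LD) in FG. In WT on the ground it was 8.45 and 8.53 (SD) and 8.52 and 8.55 (LD).

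No member's response to space was called different between the genotypes. In SD limma called none higher in FG, beside 0.609% of all tested, or in WT, beside 1.25%, with 1 and 6 unadjusted p-values under 0.05. In LD 3 members were called higher in FG (PAD1, RPT2b and RPN2b), beside 9.46% of all tested, and 3 in WT (PAD1, RPT2b and RPN2a), beside 10.9%. The FG response minus the WT response called no member in SD, beside 0%, and none in LD, beside 0.0350%, with 1 and 0 unadjusted p-values under 0.05. In LD PAD1 changed by 1.35 in FG and 1.39 in WT, and RPT2b by 1.06 in FG and 1.05 in WT.

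FG over WT under the same conditions called no member (limma), beside 0.0140% (SD, space), 0.0140% (SD, ground), 0.00700% (LD, space) and 0.0280% (LD, ground) of all tested. Unadjusted p-values under 0.05 numbered 2, 3, 0 and 1 in these 4 contrasts, again without a share of all tested. The median over the members, likewise not taken relative to all tested probe sets, was -0.07, 0.16, -0.01 and -0.07 in the same order.

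The core and the regulatory particle were set side by side without a test of their difference. In SD the median log2 fold change was 0.19 for the 8 members of 20S and 0.26 for the 10 of 19S, and in LD it was 0.58 for both. With all measured subunits the LD medians were 0.62 (21 probe sets of 20S) and 0.54 (28 of 19S), against 0.08 for all tested. Within an array, the mean log2 signal of the 20S members minus that of the 19S members is not moved by a constant shift of the whole array. It was 1.26 ± 0.01 in space and 1.29 ± 0.18 on the ground in FG in SD (standard deviation, n = 2 arrays each). In WT in SD it was 1.07 ± 0.07 in space and 1.14 ± 0.24 on the ground, in FG in LD 1.36 ± 0.03 in space and 1.32 ± 0.09 on the ground, and in WT in LD 1.19 ± 0.18 in space and 1.34 ± 0.12 on the ground. In FG in SD, WT in SD and FG in LD the space and ground means lay within the spread between arrays, and in WT in LD the space mean was lower by about that spread. Over all measured subunits the same difference was 0.58 ± 0.02 in space and 0.69 ± 0.06 on the ground in FG in SD, and 0.50 ± 0.05 in space and 0.48 ± 0.19 on the ground in WT in SD. In LD it was 0.77 ± 0.02 in space and 0.61 ± 0.01 on the ground in FG, and 0.69 ± 0.09 in space and 0.63 ± 0.01 on the ground in WT. In FG these gaps, lower in space in SD and higher in space in LD, were larger than the spread between the 2 arrays, which the members alone did not show. The offset itself compares different probe sets and is no measure of subunit ratio.

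**Figure D4:**
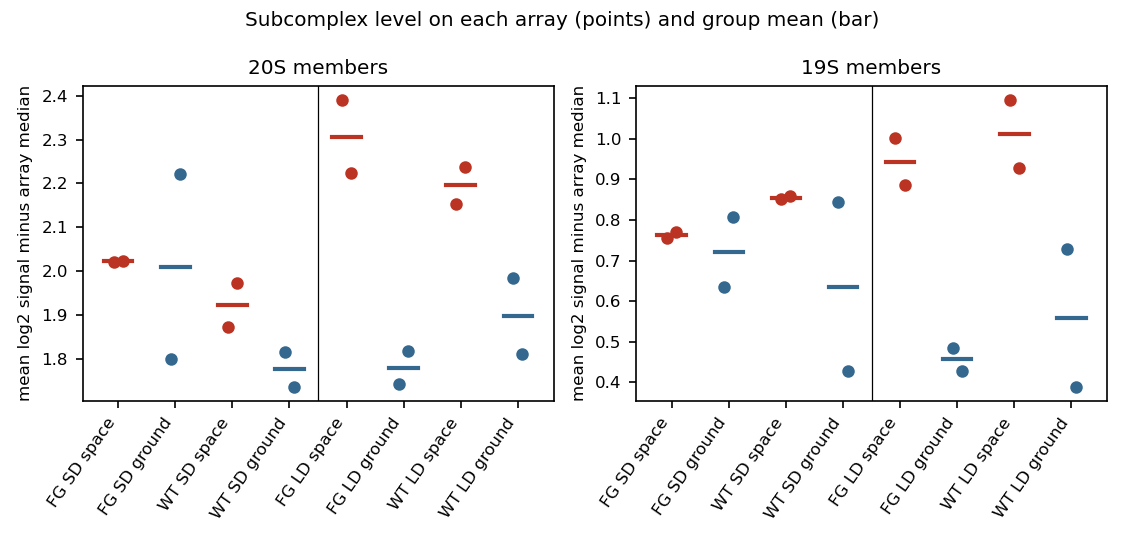
Mean log2 signal of the 8 members of 20S (left) and the 10 of 19S (right) on each array, minus that array's median over all tested probe sets, with points for arrays and bars for group means of 2 arrays. In LD every space array lies above every ground array in both panels, and in SD the space and ground points overlap in both panels.

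Among the accessory proteins no member rose. PA200, a nuclear activator that caps the 20S core, had a log2 value of 0.48 in SD (adjusted p 0.336), where 1 WT ground array stood at 1606 and the other at 566. In LD its signals were 811 and 965 in FG and 1455 and 807 in WT in space, against 537 and 411 in FG and 796 and 628 in WT on the ground, a log2 fold change of 0.76 ± 0.30 (adjusted p 0.0719, limma). UMP1, the maturation factor of the core, had log2 fold changes of -0.09 in SD and 0.31 in LD, and neither passed. AT3G53970, titled a probable proteasome inhibitor, had 0.19 in SD and -0.03 in LD. AT5G57950, titled non-ATPase regulatory subunit 9, had 0.22 in SD and -0.02 in LD. The PCI-domain proteins differed from each other: AT5G15610 had 0.95 in SD without passing (adjusted p 0.0683) and rose in LD (0.85 ± 0.30, adjusted p 0.0452; 0.0633 after quantile normalization and 0.168 after median centring), while AT3G02200 had 0.05 in SD and -0.06 in LD.

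The 31 other subunits, found by list and not by title, showed a like level of change. Their median log2 fold change was 0.26 in SD and 0.53 in LD. In SD RPN10, RPN5b and PBB2 rose, with adjusted p of 0.0402, 0.0452 and 0.0499 (limma), beside 6.21% of all tested. After quantile normalization only RPN10 of the 31 passed in SD, and after median centring none did. In LD 17 of the 31 rose at an adjusted p under 0.05, beside 21.6% of all tested, and none fell. Called higher were RPN5b, PAG1 and RPN8b, beside 13.5%. With median centring in LD 4 of the 31 rose, beside 13.1% of all tested, and 2 fell, beside 21.6%. There 1, RPN5b, was called higher, beside 8.73%. With spike-in scaling 27 rose, beside 44.4% of all tested, and 20 were called higher, beside 28.3%. The list came from general knowledge of the complex, and it was made with earlier results of these data known.

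RPN5b, a lid subunit, had the largest LD change of any subunit measured. Its signals were 312 to 374 in space and 61.6 to 155 on the ground in LD, with a log2 fold change of 1.60 ± 0.26 (adjusted p 0.00112, limma). It was called present on 2 of the 4 LD ground arrays, and 1 of the 4 was raised to the floor of 75, so the fold change is a lower bound. PAG1, an alpha-ring subunit, had 2028 to 3038 in space and 1017 to 1668 on the ground in LD, a log2 fold change of 1.12 ± 0.20. RPN8b, a lid subunit, had 566 to 738 in space and 294 to 337 on the ground in LD, a log2 fold change of 1.05 ± 0.21.

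The peptidase subunits of the beta ring rose in LD without reaching 2-fold as deposited. With median centring 0 of the 10 beta-ring probe sets rose in LD, beside 13.1% of all tested. With spike-in scaling all 10 did, beside 44.4% of all tested, with a median of 1.12. PBA1, the caspase-like subunit, had signals of 3127 to 4684 in space and 1784 to 3055 on the ground, a log2 fold change of 0.75 (adjusted p 0.0131, limma). PBB1 and PBB2, the trypsin-like subunits, rose by 0.73 and 0.62, and the probe set shared by PBE1 and PBE2, the chymotrypsin-like subunits, by 0.49 (adjusted p 0.0115). For these 4 probe sets all LD space arrays lay above all LD ground arrays, which held for 21.4% of all tested. In SD the same held for PBB2 and PBE1/PBE2, beside 10.3% of all tested, and not for PBA1 or PBB1. In SD the log2 fold changes were 0.15 for PBA1, 0.10 for PBB1, 0.45 for PBB2 and 0.27 for PBE1/PBE2.

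The ubiquitin receptors differed from each other. RPN10 rose in both daylengths, by 0.57 in SD and 0.55 in LD, with signals of 2142 to 2600 in space and 1313 to 1760 on the ground in SD. In LD its signals were 1454 to 2205 in space and 1018 to 1486 on the ground, so they overlapped. With median centring RPN10 passed in neither daylength (adjusted p 0.206 in SD and 0.342 in LD). RPN13 had -0.04 in SD and 0.06 in LD, far from passing. RPT2a, the paralogue of RPT2b, rose by 0.60 in LD (adjusted p 0.0297, limma; 0.379 with median centring), with 2059 to 2631 in space and 1355 to 1824 on the ground. A few subunits lay below 0 in LD without passing, the ATPases RPT3 (-0.48) and RPT5a (-0.26) and the lid proteins RPN6 (-0.24) and DSS1(I) (-0.19). For RPT3 and RPT5a all 4 LD space arrays lay below all 4 LD ground arrays, which held for 12.8% of all tested. Both fell with median centring (-0.79 and -0.58, adjusted p 0.0174 and 0.0155), and with spike-in scaling both were above 0 (0.08 and 0.29) without passing. Of 14 paralogue pairs measured by separate probe sets, 2 had opposite signs in SD and 1 in LD as deposited, RPT5a against RPT5b. No member of those pairs was called. After median centring PAB2 turned to -0.04 in LD while PAB1 stayed above 0, so these counts depended on scaling. AT2G26780, an ARM repeat protein placed with the accessory proteins in the list, rose by 0.98 ± 0.16 in SD (adjusted p 0.00738) and by 0.47 in LD (adjusted p 0.0472, limma), where it did not pass after quantile normalization or median centring.

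Transcripts of both transcription factors fell in LD as deposited. In SD the log2 fold changes were -0.47 for NAC53 and -0.75 for NAC78, and neither passed. NAC53 had signals of 997 to 1560 on the 4 LD space arrays and 2322 to 4203 on the 4 LD ground arrays, a log2 fold change of -1.09 (adjusted p 0.0102, limma). NAC78 had 1319 to 1936 in space and 2682 to 3588 on the ground in LD, a log2 fold change of -0.90 (adjusted p 0.0145, limma). For both genes all LD space arrays lay below all LD ground arrays, which held for 12.8% of all tested. In SD the same held for NAC78 and not for NAC53, beside 5.17% of all tested. With spike-in scaling 0 of the 2 passed in LD.

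**Figure D5:**
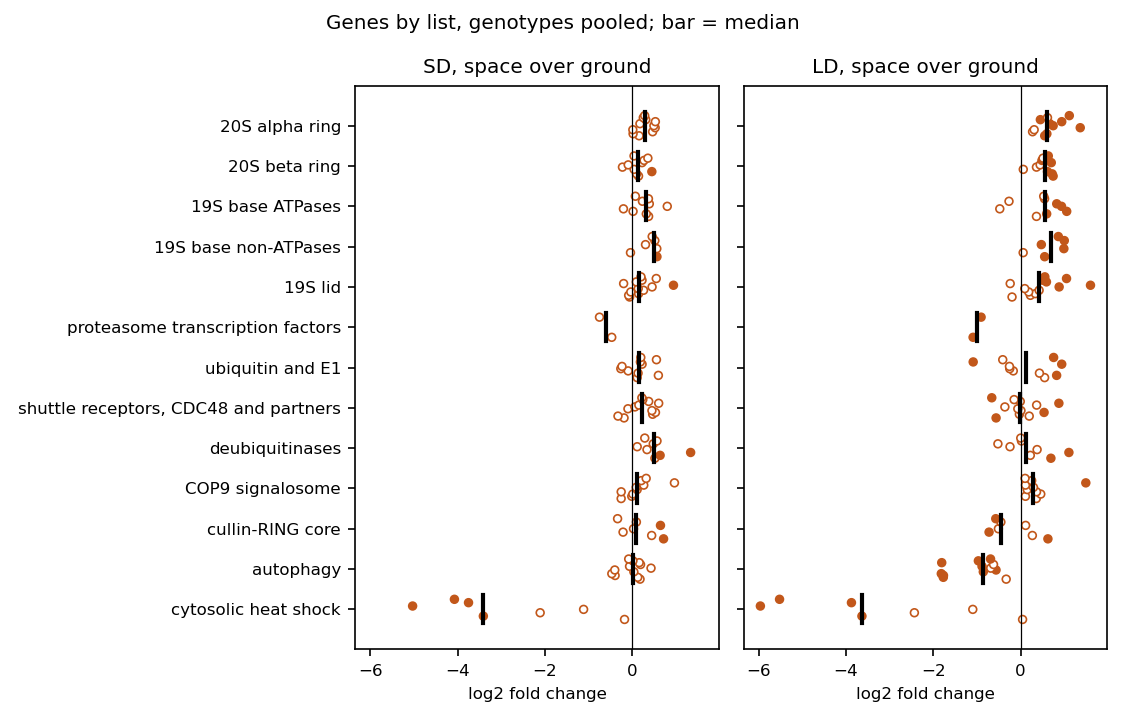
Log2 fold change of space over ground (x axis, genotypes pooled) for each gene of 13 lists (rows), SD on the left and LD on the right. Filled points have an adjusted p under 0.05 and the bar is the list's median. In LD the 5 rows of subunits lie mostly right of 0, while the rows of proteasome transcription factors, autophagy and cytosolic heat shock lie mostly left of it.

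Around the proteasome, the other lists were mixed. In LD 21.6% of all tested rose and 13.1% fell, and the counts of these lists moved with scaling. With median centring 13.1% of all tested rose and 21.6% fell, and with spike-in scaling 44.4% rose and 4.75% fell. Of 10 ubiquitin and E1 probe sets 3 rose and 1 fell in LD, with UBQ3 called lower (-1.08), while 0 rose and 3 fell with median centring and 5 rose and 0 fell with spike-in scaling. Among 12 shuttle receptors and CDC48 partners 2 rose and 2 fell in LD, with RAD23B at 0.88 and UFD1 at -0.66, while 0 rose and 3 fell with median centring and 4 rose and 0 fell with spike-in scaling. UBP14, a deubiquitinase, was called higher in both daylengths, by 1.34 in SD and 1.11 in LD, and kept the LD call only with spike-in scaling among the 3 other scalings. CSN6B was the 1 called probe set of 10 in the COP9 signalosome, a relative of the 19S lid, beside 13.5% of all tested called higher in LD. Its log2 fold change of 1.50 is a lower bound, since it was present on 1 of the 4 LD ground arrays and 3 of them were raised to the floor of 75. Of 7 cullin-RING core probe sets 1 rose and 2 fell in LD, while 0 rose and 4 fell with median centring and 3 rose and 0 fell with spike-in scaling.

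Transcripts of autophagy genes, which serve the other main route of protein turnover, mostly fell in LD as deposited. Of the 12 probe sets 9 fell at an adjusted p under 0.05, beside 13.1% of all tested, and 4 were called lower, beside 7.24%. The 4 were ATG7 (-1.77), ATG8A (-1.77), ATG8B (-1.82) and ATG8H (-1.81), of which the ATG8 proteins are attached to autophagosome membranes. With spike-in scaling 4 of the 12 fell, beside 4.75% of all tested, and the LD median of the list was -0.31. The list's median log2 fold change was 0.03 in SD, where none passed and 0 were called lower, beside 2.08% of all tested, and -0.87 in LD. In SD median centring gave -0.14 for that median, whereas scaling to the spike-ins gave 0.58 and 3 of the 12 rose. With spike-in scaling 5787 of 14459 tested probe sets rose in SD. The cytosolic heat shock list had 4 of 7 probe sets called lower in both daylengths, beside 2.08% of all tested in SD and 7.24% in LD. HSP70 stood at -5.03 in SD and -5.96 in LD. The size of these HSP70 values is a lower bound, since HSP70 was present on 2 of 4 space arrays in SD and 1 of 4 in LD, and 1 and 2 of them were raised to the floor of 75. The mean log2 signal of the heat shock list, untested low probe sets included, was 7.42 to 7.58 on SD space arrays. On SD ground arrays it was 8.53 to 11.9. In LD it was 7.21 to 7.77 on space arrays and 9.37 to 10.6 on ground arrays. The list thus moved with the environment in both daylengths, and its part in the proteasome values was not tested.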

How the data were processed

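Log2 signals of 16 arrays were used as deposited. The authors computed them with MAS 5.0 (named in the processing notes without a version) and scaled each array to a trimmed mean near 500 (499.7 to 499.8 after leaving out 2% at each side). The series value table holds the same numbers and was not analysed separately. Signals under 75 were raised to 75. Probe sets were kept where both arrays of at least 1 group exceeded 75, and 64 control probe sets were not tested. limma 3.58.1 in R 4.3.3 (lmFit and eBayes) was fitted with 1 mean per group over all arrays, and 19 contrasts were adjusted by Benjamini-Hochberg over 14286 probe sets. Calls needed an adjusted p under 0.05 and 2-fold. The precision is limited by 2 arrays per group. The fit was tested on simulated data. Alternatives were 3 other scalings, log2(signal + 32), no filter, a filter on present calls, array weights, only the arrays compared, the methods' rule, the replicate block and each array left out.

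The title rule used no measured value, but the rule and the lists were chosen with earlier results of these data known. The text names called members, catalytic subunits, ubiquitin receptors, RPN11, RPT2a, accessory proteins, NAC53, NAC78 and up to 3 called genes per list (4 for autophagy, chosen after values were seen). RPN5b, UFD1, RAD23B and subunits below 0 were likewise named after their values were seen. Subunit names not in the annotation follow common usage for the locus. Promoter motifs were not analysed here.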

Additional observations from a re-analysis of the deposited data

Results flagged for a closer look

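RPT2b differed between daylengths in its response to space: the SD response minus the LD response was -1.04 on the log2 scale with genotypes pooled (adjusted p 0.0290, limma). The difference was -1.12 in FG and -0.95 in WT, and neither passed alone. Of the 25 members it was the 1 whose difference passed. The call was lost on leaving out any 1 of 10 of the 16 arrays, and with median centring (-0.89), spike-in scaling (-1.04) or log2(signal + 32) (-0.95).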

How the results depend on the processing

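Scaling set the level of the changes more than any other choice. The median of all tested probe sets (space over ground) was 0.08 in SD and 0.08 in LD as deposited, 0.02 and -0.04 after quantile normalization, -0.04 and -0.18 after median centring, and 0.58 and 0.57 after scaling to the spike-in controls. The share of all calls that were higher was 62.3%, 49.2%, 43.3% and 95.1% in SD in the same order, and 65.1%, 56.8%, 40.8% and 90.6% in LD. The cause of the shifts was not tested.

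In SD 0 members were called as deposited, and with genotypes pooled 1 with median centring (AT5G14710) and 8 with spike-in scaling, in FG 1 with spike-in scaling and 1 by the methods' rule, and in WT 8 with spike-in scaling. In LD with genotypes pooled 3 were called, 1 after quantile normalization, median centring or log2(signal + 32), and 16 with spike-in scaling. In FG in LD 3 were called, 1 with quantile normalization or log2(signal + 32), 0 with median centring or only the arrays compared, and 13 with spike-in scaling. In WT in LD 3 were called, 0 with median centring or only the arrays compared, and 14 with spike-in scaling. Members that rose at an adjusted p under 0.05 numbered 0 in SD, beside 6.21% of all tested, and 13 in LD, beside 21.6%. In SD 21 rose with spike-in scaling, 1 with no filter and 2 with probe sets present on both arrays of a group. In LD 4 rose with median centring, beside 13.1% of all tested, and 23 with spike-in scaling, beside 44.4%. With spike-in scaling 5787 of 14459 tested probe sets rose in SD, and 21.2% were called higher in SD and 28.3% in LD. Counts within genotypes or with other filters here have no share of all tested and are not read as a result about the members. The RPT2b daylength difference was not called (0 members) with median centring, spike-in scaling or log2(signal + 32).

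Median log2 fold changes with median centring were 0.028 (20S) and 0.0895 (19S) in SD and 0.27 and 0.26 in LD, and with spike-in scaling 0.75 and 0.81 in SD and 1.13 and 1.13 in LD. With all measured subunits they were 0.0622 and 0.0833 in SD and 0.30 and 0.23 in LD with median centring, and 0.78 and 0.80 in SD and 1.17 and 1.09 in LD with spike-in scaling.

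Leaving out each array gave 0 to 1 called in SD (1 without replicate 2 of FG-SD-gr or of WT-SD-gr), and 0 to 3 that rose there (3 without FG-SD-gr replicate 2 or WT-SD-gr replicate 1). In LD it gave 1 to 4 called (1 without FG-LD-gr replicate 2) and 10 to 14 that rose. In FG in LD it gave 0 to 3 called (0 without FG-LD-sp replicate 2 or FG-LD-gr replicate 2, 1 without FG-LD-sp replicate 1), and in WT in LD 1 to 4 (1 without WT-LD-sp replicate 1 or WT-LD-gr replicate 2). Daylength differences called numbered 0 to 2, and RPT2b was not called without any 1 of 10 arrays, 6 in LD and 4 in SD. Same-numbered arrays did not deviate together in every pair of groups (correlations -0.28 to 0.50 over 28 pairs of groups, 14 above 0.1). With the replicate block 0 members were called in SD and 3 in LD, and 15 rose in LD.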
